A study of Mus musculus with 6 samples.

Results

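HL-1 is a line of mouse atrial cardiomyocytes, and the transcriptome described here is that of HL-1 cells after transfection with a scrambled (control) siRNA. It was taken from the 3 control libraries of a series of 6, chosen by their labels (nc-siRNA, replicates 1 to 3). The other 3 libraries came from HL-1 cells given a Circ-INSR siRNA, aimed at a circular RNA that arises from the insulin receptor locus, and were not used. The series' design text gives 100 nM once, before the names of both siRNAs, and states no separate dose for the scramble. The labels give the controls no other treatment, and no time after transfection. Untransfected cells were not analysed here, so what transfection itself did to these levels was not tested. The labels do not say whether the replicates were separate cultures, and HL-1 is a single cell line, so the errors given are the spread between these 3 libraries.

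Atrial cardiomyocytes are small contractile cells that also work as endocrine cells. Their thick filaments carry the fast alpha myosin heavy chain Myh6 and the atrial light chains Myl7 and Myl4, where ventricular cells carry Myl2 and Myl3. They store and release atrial natriuretic peptide, the product of Nppa, which lowers blood pressure and blood volume. They answer the vagus nerve through the muscarinic receptor Chrm2, which opens potassium channels made of Kcnj3 and Kcnj5. HL-1 cells descend from atrial tumour cells of a transgenic mouse in which the atrial natriuretic factor promoter drove the SV40 large T antigen, a viral protein that binds p53 and the RB proteins. They divide in culture and can beat, which adult cardiomyocytes do not do together.

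Levels are given as TPM (transcripts of a gene as a share of those of all genes counted, on a fixed total). TPM was computed here from the deposited raw counts and the summed length of each gene's exons. Genes of different length can thus be set side by side. The longest and the median transcript of each gene were tried as other lengths, and this is said where a gene named as the highest, or a comparison of related genes, turned with them. Orders of other values given side by side hold for the summed exon length. Values after ± are the SD over the 3 libraries, and 3 values in a row are control replicates 1, 2 and 3. Total counts per library lay between 60024750 and 62523602. A count of 0 allows up to 3 counts, which was between 0.0466 and 0.0497 TPM for a gene of median length. That limit covers counting error only. It takes each count as a separate fragment, which may not hold, so the true limit may be higher. A gene was counted as expressed at a mean of 1 TPM or more, and 12029 of 21160 protein-coding genes (56.8%) reached it. The median over all protein-coding genes was 4.05 TPM, and 43.2% reached 10 TPM and 9.10% 100 TPM. Among genes at 10 TPM or more, the SD over the 3 libraries had a median of 5.06% of the mean. No test was made, since an exact sign-flip test over 3 libraries cannot go below a two-sided p of 0.25. With 1 group described, levels and orders are a description.

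The 5 promoter stretches below let the reading of muscle promoters be set beside the levels that follow. They are of 4 light chain and actin genes picked because they hold a CArG box, the element to which serum response factor binds, and Nppa, the source of atrial natriuretic peptide. Each is the sequence just before the gene's start in RefSeq on GRCm38.p6, 5′ to 3′ on the gene's strand, in lower case. Capitals mark a CArG box written CCWWWWWWGG (W is A or T), a TATA box written TATAAA, or a site of the GATA type written TGATAA. Bases inside an annotated exon were left off, which removed 12 bases before the Actc1 start and 47 before the Actg1 start.
Myl7 (chr11:5898783-5898912, minus strand): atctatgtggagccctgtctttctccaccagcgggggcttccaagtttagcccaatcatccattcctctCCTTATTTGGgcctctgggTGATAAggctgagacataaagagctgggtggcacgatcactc
Actc1 (chr2:114052888-114053005, minus strand): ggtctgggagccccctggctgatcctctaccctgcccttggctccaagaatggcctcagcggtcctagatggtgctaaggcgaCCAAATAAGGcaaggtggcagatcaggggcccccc
Acta1 (chr8:123894776-123894905, minus strand): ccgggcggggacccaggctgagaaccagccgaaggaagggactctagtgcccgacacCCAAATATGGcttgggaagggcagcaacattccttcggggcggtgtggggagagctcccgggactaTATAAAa
Actg1 (chr11:120348543-120348625, minus strand): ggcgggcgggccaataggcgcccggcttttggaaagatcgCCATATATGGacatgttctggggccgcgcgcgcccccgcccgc
Nppa (chr4:148000592-148000721, plus strand): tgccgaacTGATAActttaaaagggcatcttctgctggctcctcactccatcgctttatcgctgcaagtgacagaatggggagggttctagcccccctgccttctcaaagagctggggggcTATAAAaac

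The CArG box began 61 bases before the start in Myl7, 47 in Actc1, 73 in Acta1 and 90 in Actg1. Levels of these 4 genes ran from 164 TPM for Acta1, the skeletal actin, to 8505 TPM for Myl7. The same element thus stood before genes of very different level. The Nppa stretch held TGATAA from 122 bases before the start and TATAAA from 9 bases before it. It held no exact match to the CArG letters, and variants of the CArG box were not searched. A match to these letters is not a measure of binding, which these libraries do not hold.

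Myl7, the regulatory light chain of atrial myosin (ENSMUSG00000020469, chr11:5896637-5898782, minus strand), had the highest mean level of all genes counted, which include none of the mitochondrial genome. Its level was 8635, 8164 and 8716 TPM. It was followed by the translation elongation factor Eef1a1 at 6299.8, 6165 and 6209.6 TPM and by the smooth muscle actin Acta2 at 5669, 5564 and 5561 TPM. The lowest library of Myl7 lay above the highest of Eef1a1, and the lowest of Eef1a1 above the highest of Acta2. The exons of Myl7 span 590 bases, and its first place rested on the length used. With the longest transcript as the length, Eef1a1 stood at 6569 TPM and Myl7 at 6459 TPM, and with the median transcript length at 5744 and 2675 TPM.

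The rest of the 25 highest genes were mostly not muscle genes. Ribosomal protein genes made up 7 of the 25, led by Rplp1 at 5152 ± 196 TPM. Rps2 passed Rplp1 with the longest transcript, and Rplp0 and Rps2 both did with the median one. All 84 ribosomal protein genes together held 7.97% ± 0.256 of the TPM. Another 3 of the 25 were predicted genes, annotated as an unprocessed pseudogene, a processed pseudogene and a microRNA gene of 57 bases. The unprocessed pseudogene stood at rank 5 with 4399 ± 331 TPM. Whether reads of these 3 came from matching sequence elsewhere was not tested. Myl9, the regulatory light chain of smooth muscle and non-muscle myosin, reached 3778 ± 117 TPM. Ferritin light chain Ftl1, which stores iron, was at 3271 ± 94.5 TPM. Gpx3, a secreted glutathione peroxidase, was at 3028 ± 55.8 TPM. Cst3, the secreted cysteine protease inhibitor cystatin C, was at 2933 ± 174 TPM, and the lysosomal protease Ctsd at 2693 ± 75.6 TPM. The chaperone Hsp90ab1, the polyubiquitin gene Ubb, the respiratory subunit Cox4i1, prothymosin Ptma, tubulin Tuba1a and elongation factor Eef2 lay between 2148 and 3099.5 TPM. Secreted and lysosomal proteins thus stood beside contractile and translation genes at the top.

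By raw counts, which favour long transcripts, the order changed. Eef1a1 took the largest share at 0.445% ± 0.0122 of all counts, ahead of Atp2a2, the calcium pump of the sarcoplasmic reticulum, at 0.370% ± 0.0178 and Acta2 at 0.353% ± 0.00832. Flna, Hsp90ab1, Actb, Atp5b, Tnnt2, Eef2 and Hspa8 completed the 10 genes with most counts. Those 10 genes held 2.77% ± 0.0537 of the counts, while the 10 genes highest in TPM held 4.63% ± 0.0475 of the TPM. The 1000 genes with the highest TPM held 53.1% ± 0.665. No single gene among those counted therefore dominated a library. The 37 genes of the mitochondrial genome were not among them, so their share is not known.

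**Figure D1:**
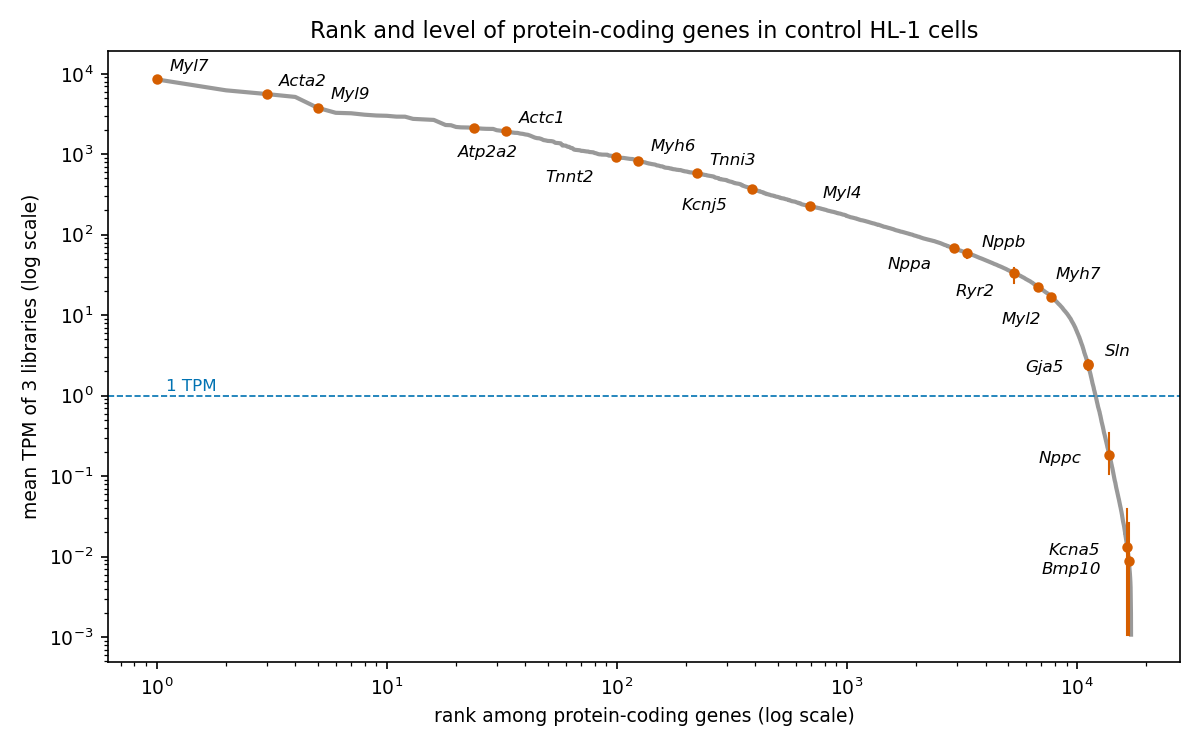
Mean TPM of the 3 control libraries (vertical, log scale) against rank among protein-coding genes (horizontal, log scale), grey line, with named genes in orange and a line from their lowest to their highest library (to the lower edge where the lowest library was at 0). Myl7 stands at rank 1 with 8505 TPM, Nppa at rank 2914 with 68.0 TPM, and Kcna5 and Bmp10 under 0.1 TPM.

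The 4 genes by which the label was checked, Nppa, Actc1, Myh6 and Tnnt2, were all expressed. Actc1, the cardiac actin, was at 1974, 1928 and 1918 TPM and ranked 33 among protein-coding genes. Tnnt2, the cardiac troponin T, was at 948, 909 and 909.9 TPM, rank 99. Myh6 (ENSMUSG00000040752, chr14:54941921-54966927, minus strand) was at 888, 849 and 733 TPM, rank 124. Control replicate 3 was the lowest for Myh6, and without it the mean was 868 TPM. Nppa was much lower, at 70.0, 68.7 and 65.4 TPM, rank 2914. The contractile part of the label was thus among the most abundant mRNAs, while the hormone was not.

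Atrial or cardiac forms were the highest members of some contractile families, and smooth muscle, skeletal or non-muscle forms of others. Myh6 held 67.0% ± 1.02 of the TPM of 13 myosin heavy chain genes, and the slow ventricular chain Myh7 held 1.83% ± 0.162. Myh7 was at 23.6, 21.9 and 21.7 TPM, so that the log2 ratio of Myh6 to Myh7 was 5.23, 5.27 and 5.08, or 36.6-fold. The non-muscle chains Myh10, at 164 ± 25.2 TPM, and Myh9, at 158 ± 24.9 TPM, held 13.3% and 12.8%, and differed from each other by less than their SD. Under both other lengths Myh9 was the higher, at 209 against 167 TPM with the longest transcript and 538 against 345 TPM with the median one. The adult fast skeletal chains Myh1, Myh2 and Myh4 had at most 7 counts in a library, and the smooth muscle chain Myh11 was at 0.456 TPM. The perinatal chain Myh8 was at 2.26 ± 0.361 TPM.

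Among regulatory light chains Myl7 held 65.9% ± 0.622 of the TPM and the ventricular chain Myl2 0.132% ± 0.00370. Myl2 was at 17.6, 15.9 and 17.6 TPM, a log2 ratio of Myl7 to Myl2 of 8.96 ± 0.03. That ratio was the most length-dependent of the contractile pairs, at 7.83 with the longest transcript and 6.92 with the median transcript. Among essential light chains the atrial Myl4, at 222, 223 and 236 TPM, stood above the ventricular Myl3, at 1.36, 1.36 and 2.38 TPM, by 7.12 ± 0.42 on the log2 scale, and by 8.13 with the median transcript. Myl3 rested on 47, 49 and 88 counts. Myl4 was not the most abundant essential chain, however. Myl1, best known as the fast skeletal chain, was at 456 ± 17.6 TPM, and the non-muscle and smooth muscle chain Myl6 at 582 ± 9.05 TPM. Both also lay above Myl4 with either other length, and the order of Myl1 and Myl6 turned with the longest transcript.

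In the thin filament, which calcium switches on through the troponin complex, the adult cardiac inhibitory subunit Tnni3 was at 565, 558 and 622 TPM and the foetal and slow skeletal Tnni1 at 90.9, 94.0 and 98.1 TPM. Tnni3 was 6.16-fold higher, and the 3 libraries of each did not overlap. Tnnt2 held 98.1% ± 0.129 of the troponin T TPM, with Tnnt1 at 7.25 and Tnnt3 at 11.04 TPM. Troponin C did not follow this pattern. The fast skeletal Tnnc2 was listed at 231, 218 and 233 TPM, above the cardiac Tnnc1 at 143, 140.0 and 149 TPM. Of the exon length of Tnnc2 (chr2:164777161-164779967), 74.0% is overlapped by Ube2c, a mitotic ubiquitin-conjugating gene on the opposite strand at 251 ± 13.3 TPM. The part of Ube2c reads in the Tnnc2 value was not tested for this gene.

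All 5 actins other than the enteric smooth muscle form were above 100 TPM. Acta2 held 44.4% ± 0.215 of the actin TPM, Actb 23.2% ± 0.226, Actg1 15.8% ± 0.0633 and Actc1 15.4% ± 0.0681, and with the median transcript length Actb passed Acta2. Acta1 held 1.299% ± 0.0769 and was 11.8-fold below Actc1. Actg2, the enteric form, had 2, 0 and 6 counts. Actin genes have near-identical coding sequences, so how reads that fit several of them were counted can move these shares. Tropomyosins, which block the myosin sites on actin, were all above 100 TPM. Tpm2 at 783 ± 22.9 TPM and Tpm1 at 602 ± 3.83 TPM led. With the longest transcript their order turned, to 1026 TPM for Tpm1 and 795 TPM for Tpm2, and with the median transcript Tpm1 was at 865, Tpm3 at 643 and Tpm2 at 529 TPM.

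**Figure D2:**
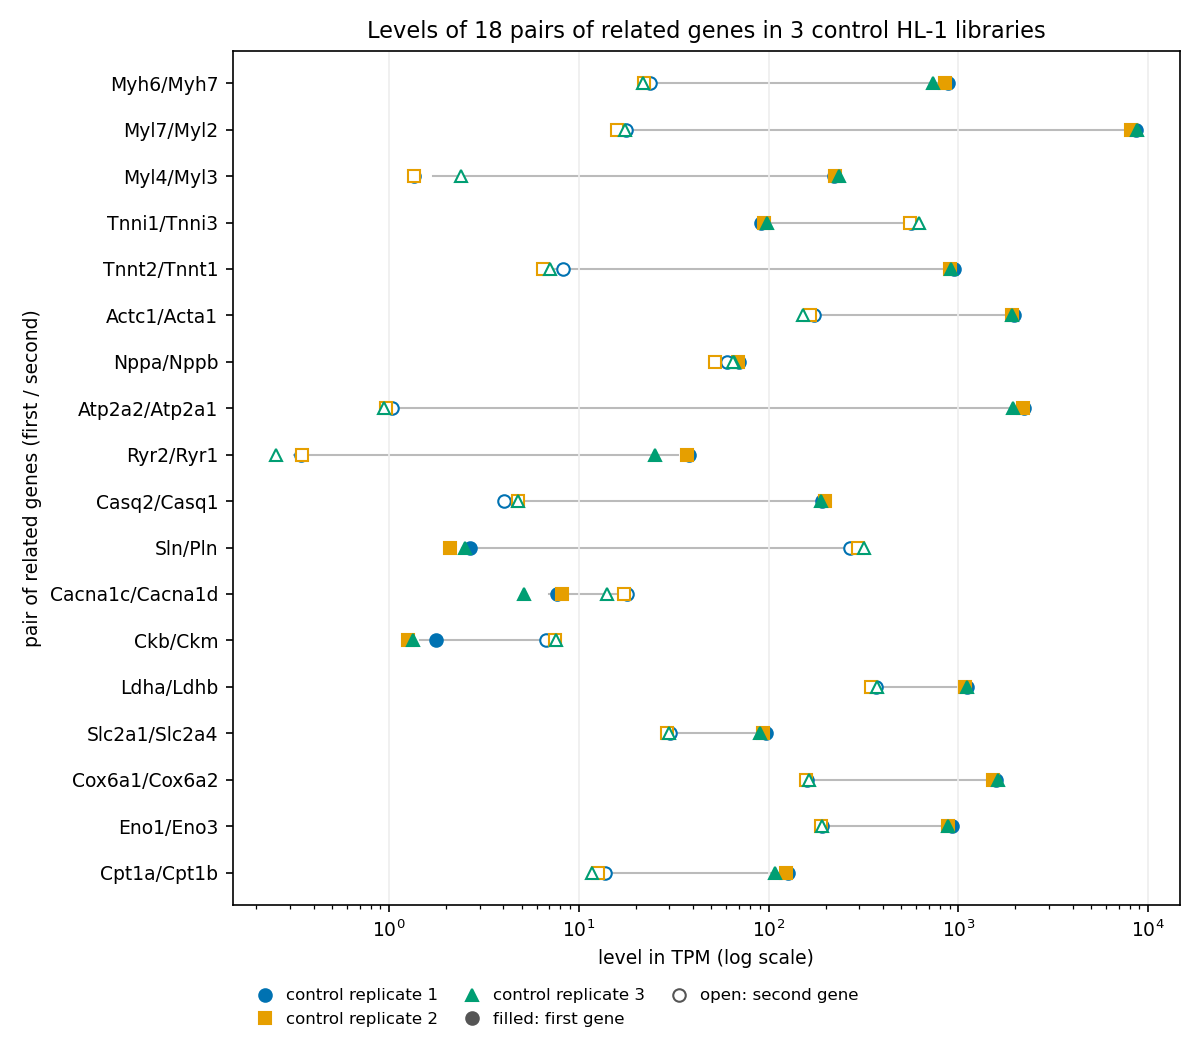
TPM (log scale) of both genes of 18 pairs in each control library, with filled symbols for the first gene named and open symbols for the second, and a grey line between the means. The first gene is the higher in 14 pairs; Tnni3, Pln, Cacna1d and Ckm are the second genes that lie above the first, and Nppa and Nppb lie side by side.

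Of the 30 listed sarcomere and Z-disc genes, 28 were expressed and 14 reached 100 TPM, with a median of 90.2 TPM against 4.05 for all protein-coding genes. The shares over all protein-coding genes were 56.8% and 9.10%. Ankrd1, a stress-responsive Z-disc and nuclear protein, led at 882, 879 and 953 TPM, though with the median transcript length desmin did. The chaperone Cryab followed at 751, 738 and 764 TPM, the intermediate filament desmin (Des) at 558, 514 and 530.2 TPM and the cardiac myosin binding protein Mybpc3 at 568, 528 and 486 TPM. Unc45b and Smyd1, which help to fold and assemble myosin, were at 306 ± 12.4 and 132 ± 2.79 TPM. The 2 genes under 1 TPM were Xirp2, at 4 counts in every library, and myotilin (Myot), with 0, 4 and 4 counts. Xirp1, the relative of Xirp2, was at 129.9 ± 23.2 TPM. The small cytoskeletal proteins Tcap and Csrp3 were at 30.3 ± 2.04 and 46.3 ± 1.26 TPM, and Myoz2 at 12.1 ± 0.734 TPM.

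Titin (Ttn), the elastic filament that spans from Z-disc to M-line, was at 40.1, 38.7 and 22.8 TPM. Its count was 79570, 79814 and 48160, and control replicate 3 lay below the others. Without that library the mean was 39.4 TPM. The nebulin relatives Nrap, at 94.3 ± 13.9 TPM, and Nebl, at 41.6 ± 0.727 TPM, lay above skeletal nebulin (Neb) at 2.52 ± 0.595 TPM under each length, though Nrap and Nebl changed places with the median transcript. Of the alpha-actinins, the muscle form Actn2 was at 153 ± 7.59 TPM, below the non-muscle forms Actn4 at 563 ± 43.1 and Actn1 at 297 ± 25.8 TPM. Myom1 was at 86.0 ± 7.73 TPM, far above Myom2 and Myom3 at 2.56 and 1.87 TPM.

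The natriuretic peptide genes were close to each other. Nppa was at 70.0, 68.7 and 65.4 TPM and Nppb, which encodes the B-type peptide of stretched and ventricular muscle, at 60.1, 52.1 and 64.7 TPM. Nppa was the higher in each library, but the log2 ratio was only 0.22, 0.40 and 0.01, and in control replicate 3 the values all but met. Of the Nppa exon length, 61.5% is overlapped by an antisense gene, which had 37, 31 and 35 counts against 1028, 1049 and 1022 for Nppa. Nppc, the C-type peptide, had 6, 2 and 2 counts. The clearance receptor Npr3, at 62.0 ± 3.78 TPM, was higher than the signalling receptors Npr2, at 16.4 ± 1.03, and Npr1, at 11.9 ± 0.889 TPM.

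The machinery that makes and stores peptide hormones was present in part. Of 16 genes on that list, 5 were expressed (31.25%), below the 56.8% of all protein-coding genes. Cpe, a carboxypeptidase that trims prohormones, was at 1046, 1049 and 1073 TPM and Pam, the peptide amidating enzyme that is abundant in atrial granules, at 518, 531 and 504 TPM. Corin, the protease that cuts pro-atrial natriuretic peptide, was at 76.6, 80.1 and 72.7 TPM, above Nppa itself in each library. Furin, a general prohormone convertase, was at 143 ± 10.5 TPM and the vesicle GTPase Rab3a at 14.99 ± 0.163 TPM. The neuroendocrine convertases Pcsk1 and Pcsk2 and the granins Chga and Scg3 were at 0 in every library. Chgb and Scg2 had at most 10 counts.

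The lists of chamber genes overlapped in these cells. Of 16 atrial genes, 13 were expressed and 10 reached 10 TPM, with a median of 20.9 TPM. Of 10 ventricular genes, 8 were expressed and 4 reached 10 TPM, with a median of 7.27 TPM. The expressed shares, 81.25% and 80.0%, were close to each other and above the 56.8% of all protein-coding genes. The ventricular count at 10 TPM is a share close to the 43.2% of all protein-coding genes. The summed level was 9989 ± 269.8 TPM for the atrial list, most of it Myl7, and 1307 ± 14.3 TPM for the ventricular list, most of it Lbh and Pln. Lbh, a regulator of transcription of limb and heart, was at 973, 946 and 948 TPM. The Wnt antagonist Dkk3 and the lipid transfer protein Stard10, both atrial in the mouse heart, were at 451 ± 13.2 and 221 ± 4.40 TPM. Nr2f1 and Nr2f2, nuclear receptors that set atrial identity, were at 18.9, 17.7 and 18.99 and 22.00, 23.2 and 24.5 TPM. Irx4, a ventricular homeobox gene, was at 0 in every library, and Hey2, a ventricular repressor, was at 1.87 ± 0.101 TPM.

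Among the atrial genes not expressed, Bmp10, a growth factor of the atria, had 2, 0 and 0 counts. Kcna5, which carries the ultrarapid potassium current, had 0, 2 and 0 counts. Sarcolipin (Sln), the atrial inhibitor of the calcium pump, was at 2.68, 2.11 and 2.52 TPM. Its ventricular counterpart phospholamban (Pln) was at 267, 297 and 318 TPM, 121-fold higher. The log2 ratio of Sln to Pln was -6.92 ± 0.26, and -8.07 with the median transcript. Of the Pln exon length, 64.7% is overlapped by other genes, among them Cep85l, which was at 4.53 ± 0.901 TPM. The atrial connexin Gja5 was at 2.17, 2.80 and 2.45 TPM. The atrial myosin binding protein Mybphl was at 6.07 ± 0.260 TPM.

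Of 24 cardiac transcription factors, 21 were expressed (87.5%, against 56.8% of all protein-coding genes), with a median of 61.3 TPM. Hand2 led at 482, 472.6 and 489.5 TPM (with the median transcript length Srf led), while its partner Hand1 was at 0 in every library. Nkx2-5 was at 291, 298 and 320.3 TPM, Gata4 at 264, 261 and 247 TPM and Tbx20 at 157, 168 and 159 TPM. Serum response factor (Srf) was at 258 ± 15.4 TPM and its cofactor myocardin (Myocd) at 89.6 ± 15.3 TPM. Tbx5, needed for atrial and septal development, was at 84.2 ± 6.13 TPM, and Gata5 and Gata6 were at 75.7 ± 5.33 and 17.5 ± 1.71 TPM. Mef2d, Mef2a and Mef2c were at 83.7 ± 6.92, 52.5 ± 2.24 and 22.9 ± 1.38 TPM, an order that turned under both other lengths. The second heart field factor Isl1 had 2, 0 and 0 counts. The regulators of oxidative metabolism Esrra, Esrrg and Ppargc1a were at 128, 82.9 and 57.6 TPM.

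Several pacemaker genes were also expressed. Of 10 on the list, 8 reached 1 TPM, against 56.8% of all protein-coding genes. None reached 100 TPM, against 9.10% of all protein-coding genes, and a list of 10 is too short to tell these apart. The sinus node factor Shox2 was highest, at 40.0, 44.6 and 42.4 TPM, except with the longest transcript, where the connexin Gjc1 was, and Tbx18 and Tbx3 were at 19.7 ± 1.06 and 3.94 ± 0.246 TPM. The hyperpolarisation-activated channels, which depolarise pacemaker cells, included Hcn2 at 18.3 ± 1.07 and Hcn4 at 10.9 ± 1.89 TPM. Vsnl1, a calcium sensor of the sinus node, was at 0 in every library.

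**Figure D3:**
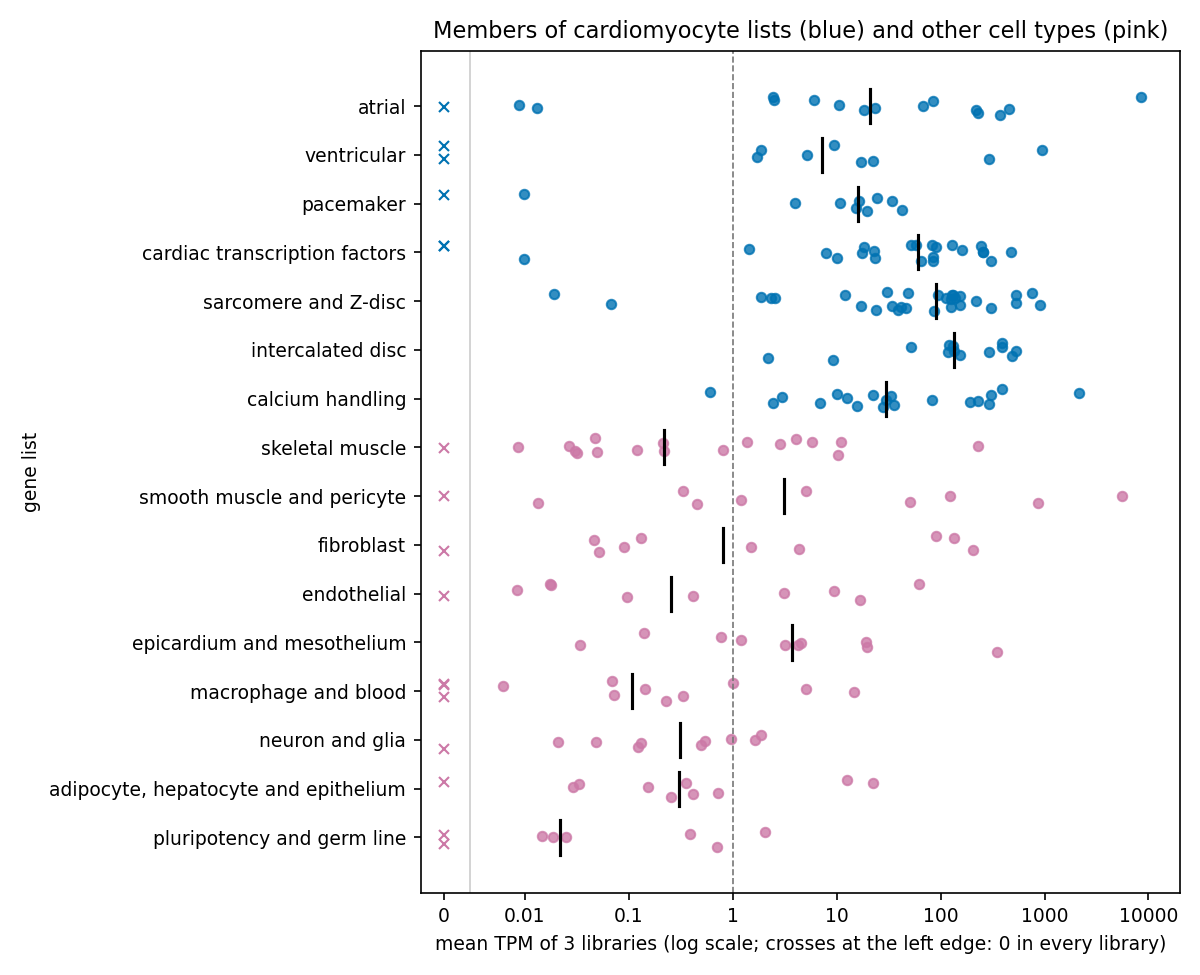
Mean TPM (log scale) of every member of 16 gene lists, with cardiomyocyte lists in blue, lists of other cell types in pink, crosses for genes at 0 in every library, a black bar at each list's median and a dashed line at 1 TPM. The 7 cardiomyocyte lists have medians between 7.27 and 133 TPM, and the 9 others between 0.0219 and 3.73 TPM.

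Cardiac forms of the calcium handling genes prevailed. Of 19 genes, 18 were expressed (94.7%, against 56.8% of all protein-coding genes). Atp2a2, the pump that refills the sarcoplasmic reticulum, was at 2226, 2205 and 1944 TPM, with a log2 ratio of 11.08 ± 0.07 over the skeletal Atp2a1. The release channel Ryr2 was at 38.3, 37.0 and 25.2 TPM, with control replicate 3 below the others, and stood 106-fold over the skeletal Ryr1. Calsequestrin 2 (Casq2), which buffers the stored calcium, was at 191, 198 and 188 TPM, and its skeletal relative Casq1 at 4.54 ± 0.429 TPM. Jph2, which holds the reticulum next to the surface membrane, was at 408, 389 and 368 TPM while Jph1 was at 0. Among L-type channel pores Cacna1d, typical of atrial and nodal cells, was at 17.9, 17.2 and 13.99 TPM and Cacna1c, the main cardiac pore, at 7.68, 8.10 and 5.12 TPM, with Cacna1d 2.38-fold higher. The T-type pore Cacna1g was at 25.8, 24.95 and 22.1 TPM. Bin1, which shapes T-tubules, had 41, 30 and 61 counts, or 0.606 TPM, and was the member under 1 TPM. The exchanger Slc8a1 was at 28.1 ± 5.24 TPM and the histidine-rich protein Hrc at 2.96 ± 0.513 TPM.

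Potassium channels were uneven. Kcnj5, a subunit of the acetylcholine-gated channel, was at 387, 382 and 339 TPM, and its partner Kcnj3 at 9.79, 11.6 and 10.6 TPM. Kcnh2, which carries the rapid delayed rectifier, was at 206, 199 and 186 TPM, and the slow one's subunits Kcne1 and Kcnq1 were at 66.6 ± 1.98 and 39.5 ± 2.28 TPM. Kcnj2, the main channel of the resting potential in ventricular cells, had no count in any library, and Kcnj12 was at 0.195 TPM. Kcnj4, of the same subfamily, was at 19.7 ± 0.902 TPM. The transient outward genes were low, with Kcnd2 and Kcnd3 at no more than 8 counts and their helper Kcnip2 at 0.648 ± 0.0867 TPM. Of the pore subunits of the ATP-sensitive channel, Kcnj11 was at 13.5 ± 1.18 TPM and Kcnj8 at 0.

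Of the genes that move sodium, Scn10a, a channel pore best known from sensory neurons, was at 4.33, 4.26 and 3.94 TPM, and Atp1b1, the beta subunit of the sodium pump, at 537 ± 15.2 TPM. Of the receptors that set the heart rate, Chrm2 was at 73.3, 77.2 and 67.7 TPM. Among beta-adrenergic receptors Adrb3 was at 23.7, 26.2 and 24.8 TPM and Adrb1 at 22.01, 19.9 and 20.5 TPM, and the lowest library of Adrb3 lay above the highest of Adrb1. Adra1b was the alpha-1 receptor expressed, at 11.5 ± 0.852 TPM, and Adra1a and Adra1d had no count.

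All 13 intercalated disc genes, which join cardiomyocytes end to end, were expressed, with a median of 133 TPM. The share over all protein-coding genes was 56.8%. Desmoplakin (Dsp) was at 543, 525 and 384 TPM, with control replicate 3 lowest. The catenins Ctnna1 and Ctnnb1, vinculin (Vcl), plakoglobin (Jup), plakophilin 2 (Pkp2) and N-cadherin (Cdh2) lay between 132 and 391 TPM. Ctnna3, the heart-enriched alpha-T-catenin, was the lowest at 2.17 ± 0.256 TPM. Among connexins, Gja1 was at 51.9, 54.3 and 51.4 TPM, Gjc1 at 34.1, 33.7 and 34.8 TPM and Gjd3 at 17.8 ± 0.563 TPM, and Gja5 was lower, as given above.

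Energy metabolism mixed forms of mature muscle with general ones. Fabp3, the heart fatty acid binding protein, was at 1851, 1810.4 and 1928 TPM and held nearly all the TPM of its family. Ldha, the lactate dehydrogenase of glycolytic tissue, was at 1107, 1085 and 1112 TPM against 367, 345 and 372 TPM for the heart form Ldhb. The ubiquitous Slc2a1 lay above the insulin-responsive glucose transporter Slc2a4 by 1.66 ± 0.05 on the log2 scale, and the liver-type Cpt1a above the muscle-type Cpt1b by 3.23 ± 0.05. The ratio of Cpt1a to Cpt1b was 3.84 with the longest and 4.08 with the median transcript. Of the Cpt1b exon length, 81.4% is shared with another annotated gene. Eno1 was at 895 ± 23.6 and the muscle Eno3 at 191 ± 1.87 TPM. Pgam2, the muscle phosphoglycerate mutase, was at 1041, 951 and 1020.0 TPM and Pgam1 at 799.8, 782 and 806 TPM, an order that turned with the median transcript length. Brain glycogen phosphorylase Pygb, at 1082 ± 51.3 TPM, lay above the muscle form Pygm, at 237 ± 14.3 TPM. Cox6a1 was 9.88-fold over the heart and muscle form Cox6a2.

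The cytosolic creatine kinases and myoglobin lay below the median of expressed protein-coding genes, 28.0 TPM, and the mitochondrial creatine kinases above it. Cytosolic Ckm was at 6.68, 7.44 and 7.56 TPM and Ckb at 1.77, 1.25 and 1.34 TPM. The mitochondrial Ckmt2 was at 122, 122 and 127 TPM and Ckmt1 at 97.0, 90.2 and 89.4 TPM, an order that turned under both other lengths. Myoglobin (Mb) was at 5.49, 5.12 and 4.60 TPM. Caveolin 3, the muscle caveolin, was at 256 ± 11.5 TPM, above Cav1 at 74.1 ± 4.97 TPM, an order that turned with the median transcript length. Of 20 genes that rise after birth in heart, 18 were expressed, with a median of 142 TPM, and of 15 foetal-program genes 14, with a median of 93.7 TPM. Of all protein-coding genes 56.8% were expressed. Members of both lists were thus present side by side. The foetal list includes the cardiac actin Actc1 and the ubiquitous Slc2a1, so its count does not mark a foetal state. The imprinted foetal RNA H19 was at 33.3, 38.4 and 39.0 TPM, and the growth factor Igf2 at 1.83, 1.999 and 2.46 TPM.

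Genes of the cell cycle were expressed. Of 16 proliferation genes 15 reached 10 TPM, against 43.2% of all protein-coding genes. Pcna was at 374 ± 20.7, Ccna2 at 237 ± 8.06, Mki67 at 226 ± 48.6 and Top2a at 205 ± 9.44 TPM. Mki67, a long transcript, was 261, 246 and 170.3 TPM, lowest in control replicate 3. Among D-type cyclins Ccnd3, at 39.5 ± 0.476 TPM, and Ccnd1, at 27.6 ± 2.31 TPM, were expressed, and Ccnd2 was at 0.0648 ± 0.0148 TPM. All 12 genes of the p53 and RB axis were above 10 TPM. The p53 targets Ccng1 and Cdkn1a, the latter an inhibitor of cyclin-dependent kinases, were at 779.8, 842 and 831 and 790.4, 763 and 766 TPM, and Mdm2, the ubiquitin ligase of p53, at 258, 261 and 259 TPM. Trp53 was at 133 ± 2.74 TPM. Cdkn2a, whose products hold p53 and RB active, was at 344, 359.9 and 360.4 TPM, and Rb1 at 49.9 ± 3.55 TPM. The viral T antigen of this line is not a mouse gene and was not analysed here.

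The insulin receptor gene, whose circular RNA the study addressed, was expressed in these controls. Insr was at 33.5, 33.2 and 26.2 TPM and the related Igf1r at 14.1, 13.5 and 9.48 TPM, with replicate 3 lowest for both. The adaptors Irs2 and Irs1 were at 19.2 ± 3.37 and 7.85 ± 1.06 TPM. These libraries were selected for poly(A) tails, so the values are taken as mainly linear mRNA and are no measure of the circle. Reads of the linear and circular forms were not told apart.

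Lists of other cell types had medians under that of all protein-coding genes, but several held members at high level. The share of all protein-coding genes expressed, to be set beside the counts below, was 56.8%. In bulk RNA, few cells of a type and little RNA per cell cannot be told apart. Of 12 macrophage and blood genes 3 were expressed, and the sum over all 12 was 21.5 ± 1.46 TPM. The leukocyte gene Ptprc had 2, 0 and 4 counts and Adgre1 none, while the lysosomal Cd68 was at 14.6 ± 1.07 TPM. Of 10 endothelial genes 4 were expressed, and Cdh5, Emcn, Flt1 and Vwf had at most 6 counts in a library. The expressed members were Npr3, given above, Egfl7 at 16.9 ± 1.26, the growth factor receptor Kdr at 9.49 ± 0.710 and the angiopoietin receptor Tek at 3.09 ± 0.490 TPM. Of 10 neuron and glia genes 2 were expressed, none at 10 TPM. Of 18 skeletal muscle genes 7 were expressed, and the regulators Myod1, Myf5 and Pax7 had at most 11 counts, although Pax3, a factor of muscle and neural crest precursors, was at 10.1, 11.05 and 10.1 TPM.

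Fibroblast genes were split, and 5 of 10 were expressed, a share near the 56.8% of all protein-coding genes. Col1a1 was at 96.5, 92.6 and 83.8 TPM, while Col1a2, whose chain joins it in type I collagen, was at 0.133, 0.0456 and 0.0890 TPM with 28, 10 and 20 counts. The matrix protein Fbln1 and the collagen receptor Ddr2 were at 203 ± 4.27 and 134 ± 11.8 TPM. Col3a1 and Postn were at 4.39 and 1.49 TPM, and Pdgfra, Dcn, Lum and Tcf21, also on this list, were at or under 0.131 TPM. Of 10 smooth muscle and pericyte genes 6 were expressed, a share near the 56.8% of all protein-coding genes. The sum over all 10 was 6655 ± 83.7 TPM, most of it Acta2. In that list Acta2, Tagln, at 875 ± 18.1 TPM, and Cnn1, at 124 ± 1.85 TPM, were high, and Myh11, Rgs5, Abcc9 and Kcnj8 were under 1 TPM. Of the Tagln exon length 67.9% is overlapped by other genes, among them Pcsk7, at 12.1 ± 0.610 TPM. Of 10 epicardium and mesothelium genes 7 were expressed, a share above that of all protein-coding genes, while Wt1, a factor of the epicardium, was at 0.780 ± 0.0743 TPM and the mesothelial Msln at 3.20 ± 0.426 TPM. The epithelial keratin Krt18 was at 377, 336 and 345 TPM and its partner Krt8 at 19.7, 17.7 and 19.6 TPM, and Epcam, an epithelial adhesion protein, at 21.8, 20.8 and 24.0 TPM.

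Of all protein-coding genes, 3999 (18.9%) had no count in any of the 3 libraries, and 5604 had at most 3 in each. Chemosensory receptors led the silent families. Of 1037 olfactory receptor genes 949 had no count and 1 passed 1 TPM, Olfr1033 at 1.06 ± 0.256 TPM. Of 166 and 120 vomeronasal receptors of types 1 and 2, 135 and 82 had none, as had all 11 trace amine receptors and 32 of 35 bitter taste receptors. Keratin-associated proteins, beta-defensins, major urinary proteins, kallikreins and prolactins were also near 0, with at most 1 gene of each family above 1 TPM.

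The Hox genes, which mark position along the body, passed 1 TPM in a single cluster. Of 38 genes 6 passed 1 TPM, and all of them lie in the HoxA cluster on chromosome 6. They were picked out after their values were seen. Hoxa6 was at 30.7, 28.7 and 20.1 TPM, Hoxa10 at 18.4, 19.1 and 19.8 TPM, Hoxa5 at 13.9, 13.0 and 13.4 TPM and Hoxa13 at 9.94, 9.12 and 10.4 TPM. Hoxa7 and Hoxa9 were at 1.75 ± 0.265 and 1.19 ± 0.201 TPM. Their neighbours Hoxa4 and Hoxa11 had at most 6 counts. None of 10 HoxB, 9 HoxC and 8 HoxD genes reached 1 TPM, the highest being Hoxc6 at 0.875 TPM. All 9 HoxC genes had a count, however, and 2 of them had at most 3 in each library. Of the HoxB and HoxD genes 5 and 1 had a count.

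The X-inactivation RNA Xist had 38, 57 and 41 counts, and the Y-linked genes Ddx3y, Uty, Kdm5d and Eif2s3y had none. Of 121 protein-coding genes annotated on the Y chromosome 3 had a count. The highest was a predicted gene at chrY:90784738-90816464, at 704, 687 and 732 TPM. Whether its reads came from the Y chromosome or from matching sequence elsewhere was not tested. Alpha-globin RNA was seen at low level, with Hba-a1 at 76, 68 and 71 counts and Hba-a2 at 57, 63 and 66, while the beta-globins Hbb-bs and Hbb-bt were at 0. The pluripotency gene Nanog was listed at 2.04 ± 0.360 TPM, and Pou5f1 had at most 2 counts.

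The promoter stretch before a gene's start differed with the gene's level. Of the protein-coding genes, 13519 had exactly 1 RefSeq promoter window, and the 250 bases before the start were searched on both strands. The median ratio of observed to expected CpG was 0.154 for genes with no count, 0.300 for genes above 0 and under 1 TPM, 0.589 from 1 to 10 TPM and 0.775 from 10 to 100 TPM. It was 0.788 from 100 to 1000 TPM and lower again, 0.687, in the 58 genes above that. The GC box GGGCGG was found in 44.3% of all these promoters, in 11.9% of those with no count and in 65.5% of those from 100 to 1000 TPM. TATAAA ran the other way, from 27.9% with no count to 5.07% at 10 to 100 TPM, and back to 10.3% at 1000 TPM and over.

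The CArG box was found in 1.40% of all searched promoters, in 1.46% of those from 100 to 1000 TPM and in 4 of the 58 at 1000 TPM or more (6.90%). Those 4 include Myl7, Actc1 and Actg1, contractile genes printed above because they hold it, so the 2 shares that follow are not separate from this one. Of 53 contractile and sarcomere genes with 1 window, 8 held the CArG box (15.1%). Among these contractile genes the share was 5 of 29 at 100 TPM or more and 2 of 16 under 10 TPM. TGATAA was found in 7.04% of all searched promoters. Absence of these letters says nothing about the rest of the promoter or about the factors.

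**Figure D4:**
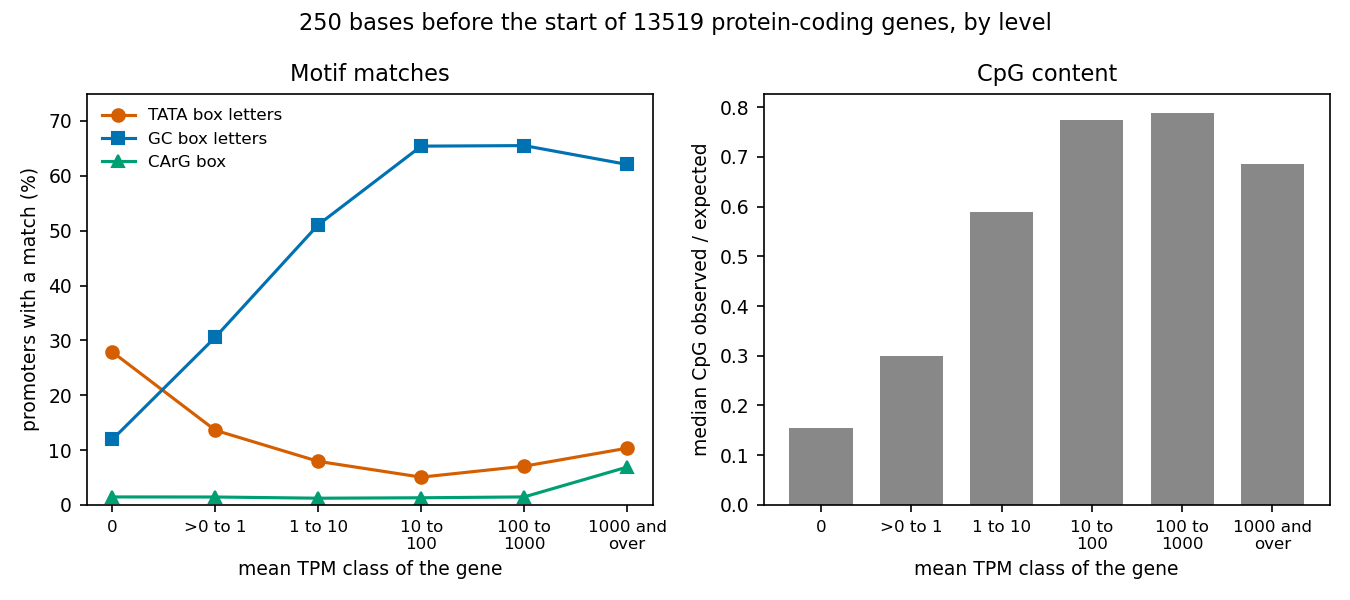
Share of promoters with a match to a TATA box, GC box or CArG box (left, percent) and median observed over expected CpG (right, bars from 0) in the 250 bases before the start, by class of mean TPM. CpG content rises from 0.154 in genes with no count to 0.788 in genes at 100 to 1000 TPM. TATA box matches fall from 27.9% to 5.07% at 10 to 100 TPM and stand at 10.3% (6 of 58) in the highest class. Whether the shares of matches followed base content alone was not tested.

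The libraries differed by gene length. The common biological coefficient of variation, edgeR's measure of spread between replicates beyond counting error, was 7.38% over 15816 genes. Without control replicate 3 it was 4.84%, and without replicate 2 it was 9.07%. In the longest decile of genes at 10 TPM or more, with exons of 9681 bases and above, the median log2 deviation from the mean of the 3 libraries was 0.06, 0.06 and -0.11. In the shortest decile it was -0.03, -0.04 and 0.07. Control replicate 3 thus read lower for long genes and higher for short ones. Hspg2, the long matrix proteoglycan perlecan, was at 500.2, 439 and 286 TPM, and Flna at 1209.5, 1136 and 852 TPM. Hspg2 was picked after its values were seen, and its drop was larger than the median of its length decile. RNA quality values were not analysed here, and their part in this was not tested. Levels of Ttn, Ryr2, Dsp, Insr and Mki67 given above carry this difference.

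**Figure D5:**
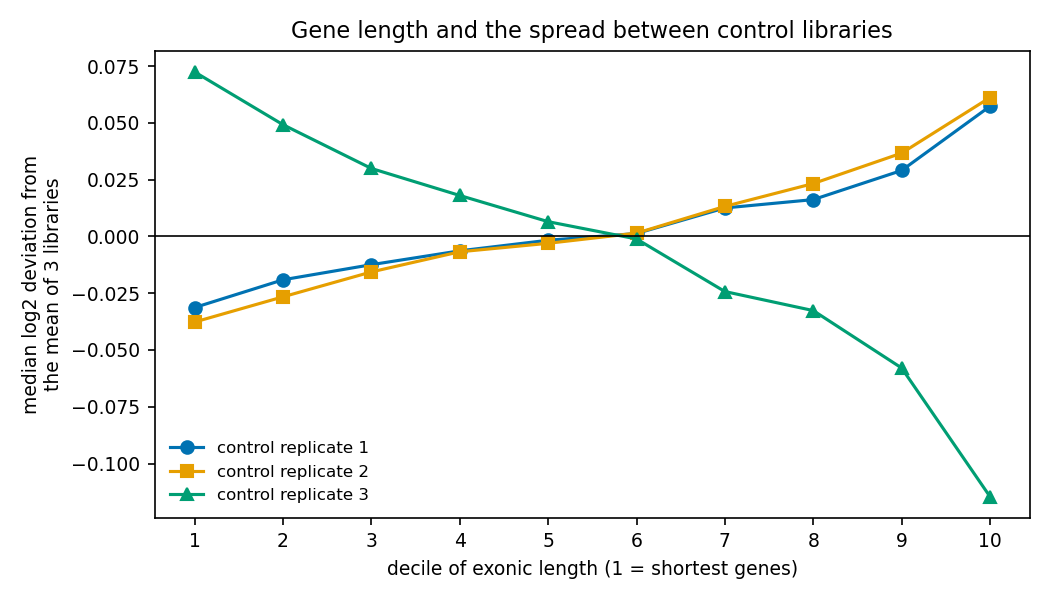
Median log2 deviation of each control library from the mean of the 3 (vertical) for protein-coding genes at 10 TPM or more, by decile of exonic length (horizontal). Replicates 1 and 2 run together from -0.04 or above to 0.06, and replicate 3 runs from 0.07 in the shortest genes to -0.11 in the longest.

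Among genes at 10 TPM or more, a few differed strongly between libraries. Lrch4 had 1291, 30 and 1261 counts, a drop in replicate 2, while the predicted gene that shares 77.2% of its exon length had 2462, 4136 and 2441. The sums of both genes were 3753, 4166 and 3702, a narrower range than for either gene alone. Akap2 had 8997, 9342 and 19269 counts, and Pakap, which overlaps it, had 35368, 35014 and 21706. Aarsd1, which also overlaps another gene, had 353, 958 and 1039 counts. Isg15, an interferon-induced ubiquitin-like protein, overlaps no other gene and was at 24.2, 59.4 and 38.1 TPM, highest in replicate 2 and lowest in replicate 1. Srcap, a chromatin remodeller that overlaps predicted genes, was at 21.6, 20.4 and 10.1 TPM and the adhesion protein Igsf9b at 22.9, 20.7 and 11.6 TPM, both lowest in replicate 3. The rest of the 10 most variable were the short RNA genes n-R5-8s1, Rn7s6 and Snord72 and the pseudogene Rbx1-ps.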

How the data were processed

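Directional poly(A) RNA libraries were prepared from HL-1 cells (NEBNext Ultra II), per the labels' protocols. The authors deposited raw read counts for each Ensembl gene ID, 1 file per library. The submitters' processing notes name build mm10, STAR 2.5.0c, featureCounts 1.6.4, StringTie 1.3.5, Trim Galore, bcl2fastq, FastQC 0.11.4 and MultiQC 1.7, with no roles. Annotation release, strandedness of counting and treatment of multi-mapping reads were not given in the sources used here, so genes that overlap or have near-identical copies are uncertain.

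Of 38087 gene IDs, 36308 (95.3%) were found in GENCODE M21 (GRCm38), which gave symbols, positions and exon lengths. The other 1779 held between 0.570% and 0.599% of the counts and were left out. None of the 37 mitochondrial genes was among the IDs. In all 3 libraries more genes had 2 counts than had 1, so a count may not be an independent fragment. As a check of strand, 58 genes wholly covered by exons of an expressed gene on the opposite strand had a median of 0.764% of that gene's level, and 40 covered on the same strand 47.3%.

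TPM was count per exon base, scaled to a fixed sum in each library. Spread was edgeR 4.0.16's common coefficient of variation (R 4.3.3) after filterByExpr (minimum count 10, minimum total 15) and TMM scaling, tested on simulated data. DESeq2 1.42.0 size factors were an alternative. Overlaps came from bedtools 2.31.1, and promoters from RefSeq (GRCm38.p6). Python 3.11.15, pandas 2.3.3, numpy 2.4.6 and matplotlib 3.10.9 were used.

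The libraries described and the 77 lists (52 families and 25 marker lists, 451 of 452 genes found) were chosen with earlier results of these data known. The genes named were list members, the 25 highest by TPM, the 10 highest by count and the 10 with the largest ratio of highest to lowest library at 10 TPM or more. Predicted genes were counted and not named, and the Hox genes, Olfr1033, Hspg2 and genes overlapping a named gene were added after their values were seen. Sequences of proteins were not used here. Values of some listed genes are not reported here.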

Additional observations from a re-analysis of the deposited data

How the results depend on the processing

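No paired analysis was possible because a single group is described, so that no second group shares its replicate numbers. Ratios of gene pairs were taken within each library. Of 18 pairs the first gene was the higher in 14 under every alternative tried (longest transcript, median transcript length, no length correction, 0.5 added to each count, and each replicate left out in turn), and no pair reversed. The size of a ratio did depend on length, since 8 pairs moved by over 1.5 times with a transcript length in place of all exons. Tnnt2/Tnnt1 went from a log2 ratio of 6.997 to 8.26, Ryr2/Ryr1 from 6.73 to 8.06, Eno1/Eno3 from 2.23 to 3.96 and Ldha/Ldhb from 1.61 to 2.84 with the median transcript. The 10 most abundant genes held 2.77% of counts but 4.63% of TPM when ranked by TPM, and 2.74% to 2.79% with a replicate left out. Genes at 1 TPM or more numbered 14394 of all 36308, 14366 to 14431 with a replicate left out, and 23538 genes had any count. Genes with no count numbered 12770, 13565 to 13708 with a replicate left out, and 19512 had at most 10 counts in every library. The list genes at 1 TPM or more numbered 306, and 304 to 308 with a replicate left out. The spread of 7.38% ran from 4.84% (without replicate 3) to 9.07% (without replicate 2), and no scaling or filter tried moved it past 7.47%. Depth limits statements of absence to genes above 3 counts in each library. Isoforms of a single gene cannot be told apart in counts per gene.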
